A study of Mus musculus with 3 samples.

Results

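The genes Eomes (also called Tbr2) and Tbr1 encode T-box transcription factors, and both were followed here in cells of the embryonic mouse dorsal midline. They were matched by Ensembl identifier, ENSMUSG00000032446 for Eomes and ENSMUSG00000035033 for Tbr1, and are 2 of the 27040 genes present in the feature sets of all 3 libraries. The wild-type group was 1 cell suspension pooled from 4 E11.5 PGKCre;Rosa26YFP and 4 E12.5 Wnt3aCre;Rosa26tdTomato embryos, from which 2 libraries were made. The knockout group was 1 library from 4 E12.5 Gmnc-/- embryos. All embryos were C57BL/6J, and the dissected region spanned the pallial midline of both hemispheres, including the cortical hem.

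Each genotype was therefore represented by 1 pool of embryos, and no test between genotypes was possible. The wild-type libraries are technical repeats and were averaged as 1 sample. Genotype also cannot be told apart from embryonic stage (the knockout pool held no E11.5 embryos), from the Cre and reporter alleles carried only by the wild-type embryos, or from the library run. Cre in the E11.5 embryos is driven by the widely active Pgk promoter and in the E12.5 embryos from Wnt3a, a gene of the hem. All intervals below are 95% intervals for counting error only.

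In the developing pallium, glutamatergic neurons arise from apical progenitors, often through intermediate progenitors that divide away from the ventricle. Neurog2 drives neuronal commitment in these cells, Eomes is the classical marker of the intermediate progenitor and Tbr1 marks the early postmitotic neuron. Cajal-Retzius neurons, the Reln-secreting cells of the marginal zone, are born early and in part from the hem. They pass through the same T-box factors, and Gmnc, a regulator of multiciliated cell formation, is active in the hem lineage.

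Eomes lies on the forward strand at chr9:118478212-118486132 and Tbr1 on the forward strand at chr2:61802930-61814114 in the GRCm38 annotation. Both are protein-coding. The 250 bases before the RefSeq start of each gene (build GRCm38.p6, forward strand) are shown because the levels of the pair are the subject here. Capitals mark CCAAT boxes (CCAAT or its reverse complement) in Eomes and the homeodomain core TAATTA in Tbr1.

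Eomes, chr9:118477939-118478188: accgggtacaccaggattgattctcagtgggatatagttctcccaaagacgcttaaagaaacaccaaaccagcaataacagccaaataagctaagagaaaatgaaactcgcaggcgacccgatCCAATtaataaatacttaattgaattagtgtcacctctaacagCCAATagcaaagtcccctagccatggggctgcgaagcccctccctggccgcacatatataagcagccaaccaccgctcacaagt

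Tbr1, chr2:61804203-61804452: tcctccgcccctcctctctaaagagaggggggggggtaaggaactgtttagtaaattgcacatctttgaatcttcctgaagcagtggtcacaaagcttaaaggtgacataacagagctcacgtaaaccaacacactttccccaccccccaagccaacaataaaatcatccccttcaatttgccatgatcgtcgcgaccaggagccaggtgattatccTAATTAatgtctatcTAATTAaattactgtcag

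The windows shared neither marked motif. The Eomes window held 2 CCAAT boxes, a motif present in 33.8% of the 32851 windows of this length, and no TAATTA. The Tbr1 window held 2 TAATTA cores, present in 4.84% of windows, and no CCAAT box. On both strands, neither window held the T-box letters AGGTGTGA (1.12% of windows), GGTGTG (16.3%) or GTGTGA (12.3%), the E-boxes CAGATG (14.4%) or CAGCTG (13%), TGGGAA (21.6%) or TATAAA (12.4%). These are letter matches only. The RefSeq start of Tbr1 lies inside the gene as GENCODE draws it, so its window falls within a non-coding Tbr1 transcript of that annotation.

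The files held 148073906, 139978761 and 259403297 UMIs (unique molecular identifiers, each standing for 1 captured transcript) in wild-type libraries 1 and 2 and the knockout. After filtering, 8527, 7479 and 12884 cells were used, with a median of 11657, 12857 and 8688.5 UMIs. The wild-type libraries shared 1914 cell barcodes before filtering and 52 after it. The targeted gene, Gmnc, was still read in the knockout, at 88.4 CPM (UMIs of the gene over all UMIs of the same cells, scaled to a common total) in progenitors against 118 and 109 in wild type. In cells outside both gates it was higher in the knockout, at 37.6 CPM against 18.1 and 19.5. A 3′ tag can lie outside the deleted part, so these counts do not check the genotype.

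Cells were placed along the neuronal path with 4 genes that are not T-box factors, after each cell was thinned to 4000 UMIs. The progenitor gate took cells with at least 1 UMI of Neurog2 and 1 of Gadd45g, a growth arrest gene induced at neurogenic commitment. The neuron gate took cells with at least 2 UMIs of Tubb3, a neuronal tubulin, and 2 of Stmn2, a microtubule regulator of growing axons. The progenitor gate alone held 1024, 923 and 1407 cells in wild-type libraries 1 and 2 and the knockout. Both gates together held 125, 97 and 228 cells, the neuron gate alone 491, 442 and 856, and 6712, 5804 and 9167 passed neither. Many cells sat at a gate's edge: 590 of 1149, 491 of 1020 and 906 of 1635 progenitor-gate cells had the minimum count of a gate gene.

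Both genes were far higher in gated cells than outside the gates, and they peaked at different steps. In wild type, Eomes was at 12.6 and 13.8 CPM in cells of neither gate, 162 and 165 in progenitors, 382 and 375 in cells of both gates, and 292 and 286 in neurons. Tbr1 was at 8.78 and 8.99, 45.01 and 46.6, 424 and 424, and 617 and 609 CPM at the same steps. Over all cells of each gate, Eomes was thus highest in both gates and lower after them, while Tbr1 was highest in neurons. The order of Eomes differed inside clusters, which are described below. In neuron-like cluster 13 it was at 612 and 586 CPM in progenitors, 441 and 503 in both gates and 523 and 479 in neurons. In neuron-like cluster 11 it was at 359 and 358 in both gates and 333 and 373 in neurons. Tbr1 in neurons exceeded that in progenitors 13.7-fold [12.52 to 15.01] and 13.1-fold [12.0 to 14.3], and Eomes only 1.80-fold [1.68 to 1.93] and 1.74-fold [1.62 to 1.86].

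Over all cells of each gate, the knockout kept the same order of steps, at other levels. Eomes was at 14.1 CPM in cells of neither gate, 132 in progenitors, 454 in both gates and 390 in neurons. Tbr1 was at 4.98, 19.3, 314 and 390 CPM. Within the knockout the neuron-over-progenitor fold was 20.2 [18.2 to 22.6] for Tbr1 and 2.95 [2.80 to 3.11] for Eomes, both above the wild-type intervals. Eomes fell from both gates to neurons in every library, to 0.765, 0.764 and 0.859 of its level there, over all cells of the gates. In cluster 13 the knockout had Eomes at 681 CPM in progenitors, 459 in both gates and 520 in neurons. In cluster 11 it had 479 in both gates and 393 in neurons.

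**Figure D1:**
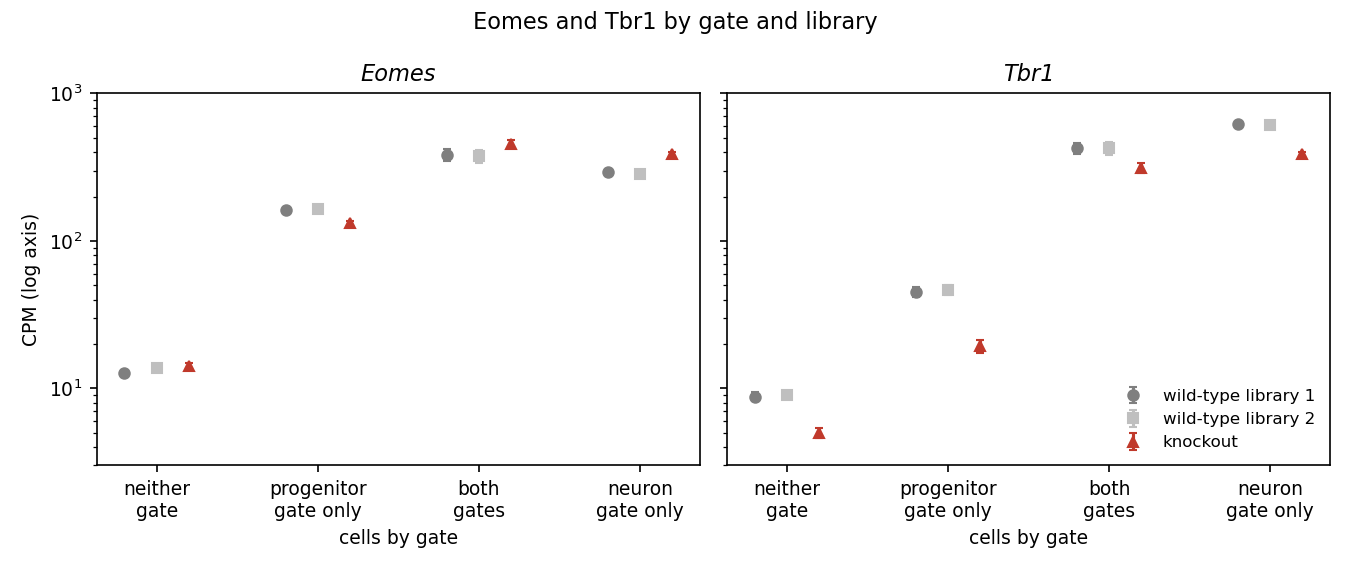
Eomes (left) and Tbr1 (right) in CPM on a log axis for cells of neither gate, the progenitor gate only, both gates and the neuron gate only, with 1 point per library and 95% counting intervals. Eomes peaks in cells of both gates in all 3 libraries, and the knockout Tbr1 points lie below both wild-type points at every step.

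In progenitors Tbr1 was lower in the knockout, at 19.3 CPM [17.4 to 21.3] against 45.01 [41.4 to 48.8] and 46.6 [43.0 to 50.5], and no interval overlapped. The fold was 2.38 lower [2.11 to 2.68]. It passed the criterion used for every gene, at least 2-fold from each wild-type library with separate intervals. In 8 of 20 other settings the knockout was less than 2-fold below the wild-type mean, so the call was lost. Among these were shared clusters (log2 -0.083), a neuron gate on Tubb3 alone (-0.13) or on Dcx and Mapt (-0.66), and doublets kept (-0.93). Of the 6551 genes deep enough in progenitors, 1.57% passed it downward and 3.45% upward, and 0.977% had a lower log2 ratio than Tbr1. Eomes did not pass it in progenitors, at 132 CPM [127 to 137] against 162 [155 to 169] and 165 [158 to 172], a fold of 0.807 [0.768 to 0.848]. Cells of clusters named Cajal-Retzius-like or neuron-like below were among these progenitors, the former at 21.3%, 21.5% and 1.49%.

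In neurons the knockout had more Eomes and less Tbr1 than wild type, and neither difference passed the 2-fold criterion. Eomes was 1.35-fold higher in the knockout [1.28 to 1.42], at 390 CPM [376 to 404] against 292 [277 to 308] and 286 [271 to 302]. Tbr1 was 1.57-fold lower [1.503 to 1.642], at 390 CPM [377 to 404] against 617 [594 to 640] and 609 [587 to 632]. The knockout value lay outside both wild-type intervals for each gene. Among 6570 genes, 3.47% passed upward and 3.7% downward, and the median gene was at -0.13 on the log2 scale. Against that median, Eomes stood at 0.43 and Tbr1 at -0.65.

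Cells of both gates were few, and most fell in clusters named neuron-like or Cajal-Retzius-like below, in unlike shares by genotype. Eomes was 1.20-fold higher in the knockout [1.09 to 1.32] and Tbr1 1.35-fold lower [1.223 to 1.496]. Neither passed the criterion, which 3.25% of 6148 genes passed upward and 3.06% downward. The balance can be read from the share of Tbr1 among UMIs of the pair, which was 52.6% [49.4 to 55.8], 53.1% [49.6 to 56.6] and 40.9% [38.5 to 43.3]. In progenitors the share was 21.7%, 22.1% and 12.7%, and in neurons 67.8%, 68.0% and 50.02%. The knockout share was the lowest at each step. Capture can differ between transcripts, so the share compares libraries and does not rank the genes.

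The gate genes themselves differed between genotypes. Tubb3 in progenitors was at 1338, 1310 and 563 CPM, and in neurons at 5036, 4701 and 3001. Stmn2 in neurons was at 2069, 1952 and 2462 CPM. Neurog2 in progenitors was at 728, 750 and 440 CPM, while Gadd45g there was level at 830, 830 and 821. Gm20388, which overlaps Tubb3 on the same strand, was in the wild-type feature set only, and Gm33460, antisense to Eomes, in the knockout set only. With the neuron gate set on Tubb3 alone, Tbr1 in progenitors was nearly level (log2 -0.13), Eomes there was higher in the knockout (0.58), and Tbr1 in cells of both gates was higher (0.35).

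At the level of cells, detection followed the same path. At 4000 UMIs, Eomes was detected in 35.2% [32.2 to 38.2], 34.3% [31.3 to 37.5] and 30.8% [28.4 to 33.3] of progenitors, and in 53.2%, 51.1% and 68.8% of neurons. Without thinning the progenitor shares were 47.0%, 48.1% and 42.0%. Tbr1 was detected in 13.2% [11.2 to 15.4], 14.4% [12.2 to 16.8] and 8.46% [7.06 to 10.0] of progenitors, and in 87.2%, 87.3% and 74.9% of neurons. Without thinning the neuron shares of Tbr1 were 95.7%, 96.8% and 88.4%. Cells that should lack both genes give the background at 4000 UMIs. In choroid plexus-like cells Eomes was detected in 0.69%, 0.18% and 1.60% and Tbr1 in 0.92%, 1.08% and 0.134%. In erythroid-like cells Eomes was detected in 0.524%, 0.585% and 7.42% and Tbr1 in 0.524%, 0.585% and 5.68%. In the knockout, 111 of the 124 Eomes UMIs and 74 of the 79 Tbr1 UMIs of this class lay in cluster 33 (clusters are described below). Of its 25 cells, 48% passed the neuron gate only, so the knockout erythroid-like shares do not give a background. Before thinning, median depths were 10413, 11826.5 and 8672 UMIs in the choroid plexus-like and 15686, 17504 and 15250.5 in the erythroid-like cells.

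The pair was co-detected far more often in neurons than in progenitors. Among progenitors, 10.4%, 10.7% and 5.61% held both genes, 24.8%, 23.6% and 25.2% Eomes alone, and 2.83%, 3.68% and 2.84% Tbr1 alone. Eomes-only cells were thus as frequent in the knockout as in wild type, and cells with both genes were fewer. Among neurons, cells with both genes made up 45.01% [40.5 to 49.5], 44.8% [40.1 to 49.6] and 53.5% [50.1 to 56.9]. Tbr1-only neurons were 42.2%, 42.5% and 21.4%, and Eomes-only neurons 8.15%, 6.33% and 15.3%. The knockout neurons were shifted from Tbr1 alone towards both genes and Eomes alone. In cells of both gates the co-detected share was 48.8% [39.8 to 57.9], 36.1% [26.6 to 46.5] and 52.2% [45.5 to 58.8], where the wild-type repeats themselves differed and overlapped with the knockout.

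**Figure D2:**
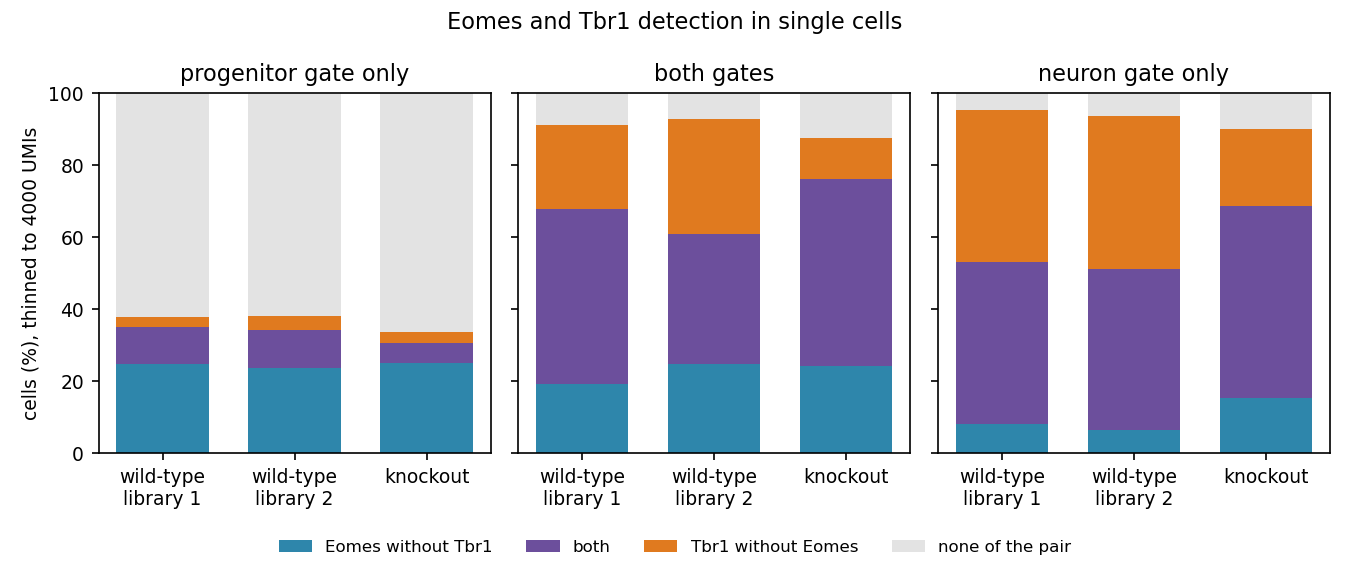
Percent of cells with Eomes only, both genes, Tbr1 only or neither, at 4000 UMIs, stacked for each gate and library. Tbr1-only cells fill 42.2% and 42.5% of wild-type neurons and 21.4% of knockout neurons.

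Within progenitors, Tbr1 was seen mainly in cells that also held Eomes. It was detected in 29.4% [24.8 to 34.4], 31.2% [26.2 to 36.6] and 18.2% [14.7 to 22.2] of Eomes-detected progenitors, and in 4.37%, 5.61% and 4.11% of the others. The share climbed with the number of Eomes UMIs in each library. At 4 or more Eomes UMIs it was 38.3%, 48.3% and 31.7%. In wild-type neurons it did not climb: Tbr1 was detected in 207 of 230 and 188 of 216 cells without Eomes and in 87.5% and 78.6% of cells with 4 or more Eomes UMIs. The knockout neurons ran the other way, at 68.5% [62.6 to 74.1] without Eomes and 79.6% [70.5 to 86.9] at 4 or more UMIs.

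An axis made from the neuron-gate genes themselves, the sum of Tubb3 and Stmn2 UMIs per cell, gave the same sequence. At 32 or more UMIs, 201 of 202, 160 of 160 and 156 of 156 cells passed the neuron gate. The axis is therefore no independent check of the gated order. Eomes reached 382, 379 and 461 CPM at 8 to 15 UMIs, was at 379, 372 and 413 at 16 to 31, level in wild type and lower in the knockout, and was lower in each library at 32 or more, at 244, 262 and 332. Tbr1 climbed through these bins, from 178, 226 and 200 CPM to 470, 470 and 406 and then 692, 650 and 507. Eomes was thus higher and Tbr1 lower in the knockout at the far end of the axis, with intervals apart. A wider gap lay earlier: at 4 to 7 UMIs, Eomes was at 91.6 [85.0 to 98.7], 106 [98.8 to 113] and 227 [215 to 238] CPM. Since Tubb3 was lower in the knockout, equal sums need not mark equal steps.

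**Figure D3:**
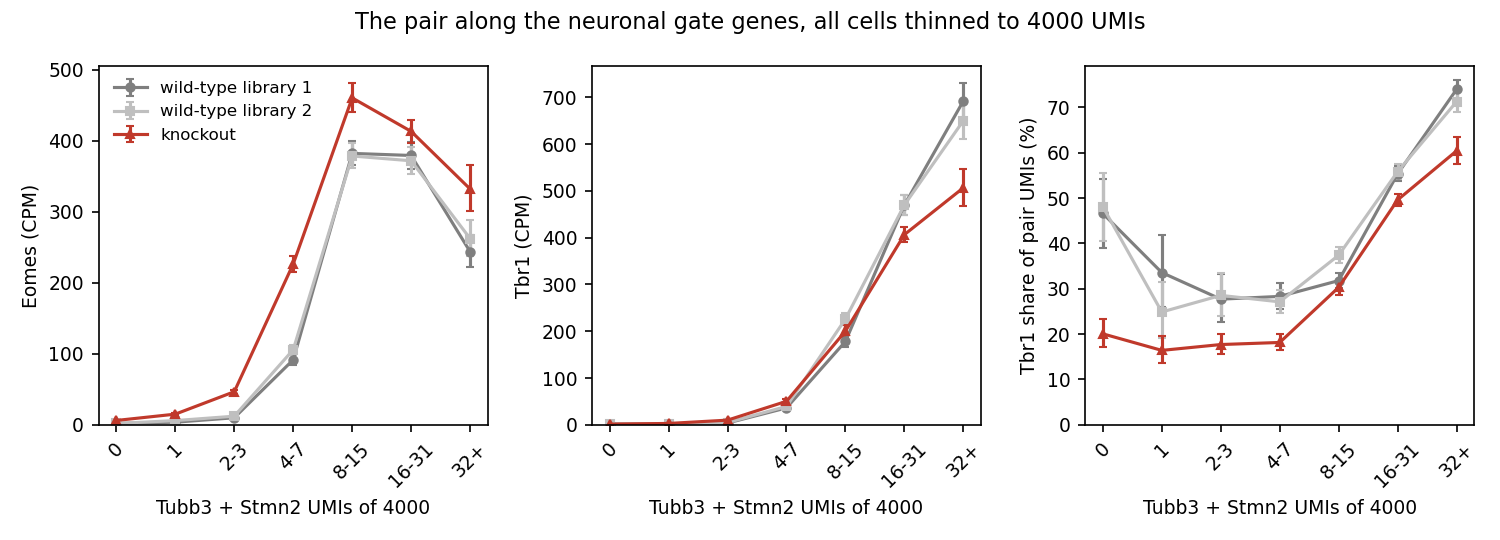
Eomes and Tbr1 in CPM along bins of Tubb3 plus Stmn2 UMIs per cell at 4000 UMIs, and the share of Tbr1 among UMIs of the pair, with 1 line per library and 95% counting intervals. Eomes is highest in the middle bins and Tbr1 in the last, and the knockout line has more Eomes at 4 to 7 UMIs (227 CPM) and less Tbr1 at 32 or more (507 CPM).

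On Stmn2 alone, Tbr1 was again lower and Eomes higher in the knockout from 4 UMIs up. At 4 to 7 Stmn2 UMIs Tbr1 was at 563 [529 to 598], 598 [563 to 635] and 332 [311 to 354] CPM, and Eomes at 337 [312 to 365], 360 [333 to 389] and 444 [420 to 469]. At 8 to 15 the values were 704, 614 and 421 for Tbr1 and 243, 258 and 385 for Eomes. At 16 or more they were 611, 621 and 474 for Tbr1 and 229, 251 and 317 for Eomes, where the Eomes intervals of wild-type library 2 and the knockout overlapped. At 1 Stmn2 UMI both genes were lower in the knockout, Eomes at 168, 163 and 107 CPM and Tbr1 at 123, 128 and 45.2. Stmn2 was 1.22-fold higher in knockout neurons, so equal Stmn2 counts need not mark equal steps either. Weighting the neurons of all libraries to the same spread over bins of the summed axis left Eomes 1.29-fold higher and Tbr1 1.44-fold lower in the knockout.

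The gates did not hold the same kinds of cell in both genotypes. The cells were grouped into 36 clusters without using Eomes, Tbr1, the gate genes or the gene lists, and each cluster was named from its markers where at least 3 passed. Cajal-Retzius-like clusters made up 55.2% and 54.8% of wild-type neurons and 4.91% of knockout neurons. Neuron-like clusters made up 42.8%, 43.9% and 85.5%. These names do not divide cells with Cajal-Retzius genes from cells without. At least 2 UMIs over Reln, Nhlh2, Ebf2 and Ebf3 were held by 91.0%, 91.6% and 85.9% of neurons. Neuron-like cluster 11, with 588 of 856 knockout neurons, had a mean log2 fold of 3.91 over neuron markers and 2.37 over Cajal-Retzius markers. Cluster 18, led by Lhx1, Lhx1os and Sncg, held 187 and 167 of the wild-type neurons and 0 of the knockout. It carried much Tbr1, 748 and 750 CPM, and little Eomes, 129 and 126. Cluster 14, Cajal-Retzius-like by its markers, was led by Tfap2b, Ccno and Mcidas (the latter pair regulators of multiciliated cells). It held 205 and 182 wild-type cells of the progenitor gate only and 2 of the knockout. These wild-type cells carried Eomes at 343 and 365 CPM and Tbr1 at 183 and 178. In the progenitor gate only, Cajal-Retzius-like clusters made up 21.3%, 21.5% and 1.49% of cells. Neuron-like clusters made up 6.05%, 7.15% and 4.55% there, and intermediate progenitor-like clusters 29.8%, 30.4% and 37.9%. In cells of both gates, neuron-like clusters made up 56.8%, 54.6% and 75.9%, and Cajal-Retzius-like clusters 37.6%, 45.4% and 5.26%. Intermediate progenitor-like clusters made up 5.6% of them in wild-type library 1 and 14.9% in the knockout. With 1 library in the knockout, an absent cluster cannot be told apart from a difference between libraries.

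Inside clusters found in both genotypes, the neuronal Tbr1 difference was present and most of the Eomes difference was not. In cluster 11 (neuron-like), Tbr1 was at 690, 556 and 434 CPM, 1.43-fold lower in the knockout [1.36 to 1.55]. In cluster 13 (neuron-like, with Cbln4 and Plxna4) it was at 408, 477 and 304, 1.45-fold lower [1.30 to 1.65]. In cluster 27 (Cajal-Retzius-like) it was at 864, 892 and 627, 1.4001-fold lower [1.17 to 1.68]. Eomes in the same clusters was at 333, 373 and 393 CPM (1.11-fold [1.03 to 1.22]), 523, 479 and 520 (1.04-fold [0.943 to 1.15]) and 74.8, 109 and 128 (1.39-fold [0.859 to 2.20]). Over the 20 clusters with at least 20 cells in each library, the neuronal log2 ratio was 0.08 for Eomes and -0.46 for Tbr1.

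Inside shared clusters, progenitors differed in Tbr1 in both directions. Over those 20 clusters Tbr1 in progenitors was at 24.0 CPM in wild type and 22.6 in the knockout, a log2 ratio of -0.08, and Eomes was higher in the knockout, at 0.38. By cluster, the intermediate progenitor-like clusters differed among themselves. In cluster 16, led by Kcnk13, Tff3 and Gmnc, Eomes was at 186, 155 and 466 CPM and Tbr1 at 13.02, 18.3 and 54.9, both higher in the knockout. Cluster 31 also had Gmnc and Tff3 among its leading genes but held 45, 45 and 10 cells, too few in the knockout to count as shared. Over all its wild-type cells, Eomes was at 245 and 279 CPM and Tbr1 at 26.7 and 75.8. Whether cluster 16 held like cells in both genotypes was not tested. In cluster 17 Eomes was at 247, 227 and 273 and Tbr1 at 15.9, 12.0 and 13.98 CPM. In cluster 19 Eomes was at 314, 313 and 331 and Tbr1 at 30.5, 36.0 and 22.1 CPM. In cluster 13 Tbr1 in progenitors was at 231, 182 and 141 CPM. The knockout was thus 1.46-fold lower [1.08 to 2.00] in cluster 13, 1.504-fold lower [0.928 to 2.62] in cluster 19, where the interval includes 1, and 3.51-fold higher [2.25 to 5.94] in cluster 16.

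**Figure D4:**
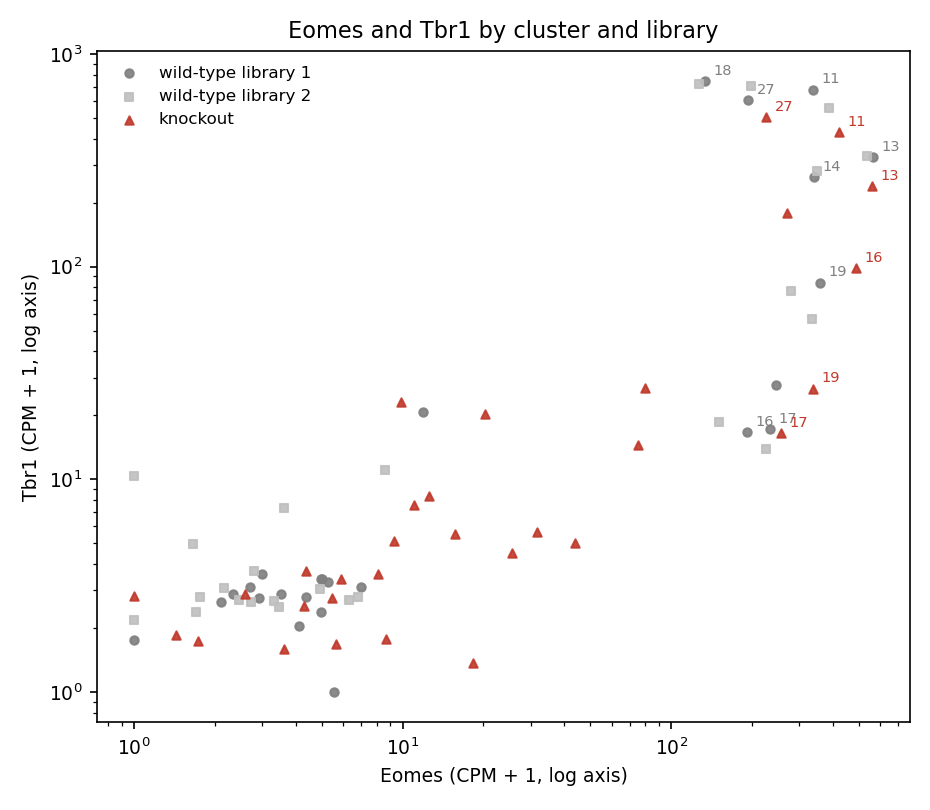
Eomes against Tbr1 over all cells of a cluster, gated or not (CPM + 1, log axes), 1 point per cluster and library with at least 20 cells, and 8 clusters numbered. Clusters 11, 13, 14, 18 and 27 lie high in both genes or in Tbr1, clusters 16, 17 and 19 have high Eomes with less Tbr1, and clusters 14 and 18 have no knockout point.

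Markers of other cells also moved with the genotypes. The summed level of the 8 erythroid genes was 340, 289 and 13240 CPM in neurons and 272, 244 and 3707 in progenitors, and 12 of 856 knockout neurons fell in erythroid-named clusters. The 7 choroid plexus genes summed to 140, 61.8 and 890 CPM in neurons. The 9 Cajal-Retzius genes summed to 2209, 2231 and 1768 CPM in neurons and 420, 425 and 249 in progenitors. Of these, Trp73, a p53-family factor of these neurons, was at 179, 177 and 0.166 CPM in Tbr1-detected neurons. The 7 genes of the GABAergic lineage summed to only 8.46, 8.58 and 11.7 CPM in neurons, with none at 20 CPM. The part of erythroid RNA in the T-box values was not tested.

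Split by hem genes, neurons had unlike Eomes folds and similar Tbr1 folds. Neurons with a hem gene (Wnt3a, Wnt2b, Rspo1, Rspo3 or Lmx1a) had Eomes at 1.67 of wild type in the knockout [1.56 to 1.78] and those without at 0.831 [0.752 to 0.917]. Tbr1 was lower in the knockout in both classes, at 0.638 and 0.619. The difference between the classes was not tested. Progenitors with at least 2 UMIs of Cajal-Retzius genes had Eomes at 1.16 and Tbr1 at 0.630 of wild type, and the rest at 1.02 and 0.626.

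The reporters allow a partial look at stage, since YFP came only from E11.5 embryos and tdTomato only from E12.5 ones. Wild-type neurons with YFP and no tdTomato (293 and 274 cells) had Eomes at 283 and 279 CPM and Tbr1 at 607 and 605. Those with tdTomato and no YFP (54 and 38 cells) had Eomes at 226 and 241 and Tbr1 at 588 and 590. Against the E12.5-labelled neurons alone, the knockout was 1.67-fold higher in Eomes [1.46 to 1.93] and 1.51-fold lower in Tbr1 [1.38 to 1.65]. Against E12.5-labelled progenitors (135 and 127 cells), Eomes was at 0.821 [0.753 to 0.897] and Tbr1 at 0.494 [0.409 to 0.600]. tdTomato marks only the Wnt3a lineage, so these cells are not all of the E12.5 tissue. UMIs of both reporters, which no single embryo carried, were in 7 and 9 wild-type neurons and 29 and 25 progenitors. Neither reporter was read in 137 and 121 neurons and 242 and 218 progenitors. Reporter UMIs therefore do not assign the stage of each cell with certainty.

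**Figure D5:**
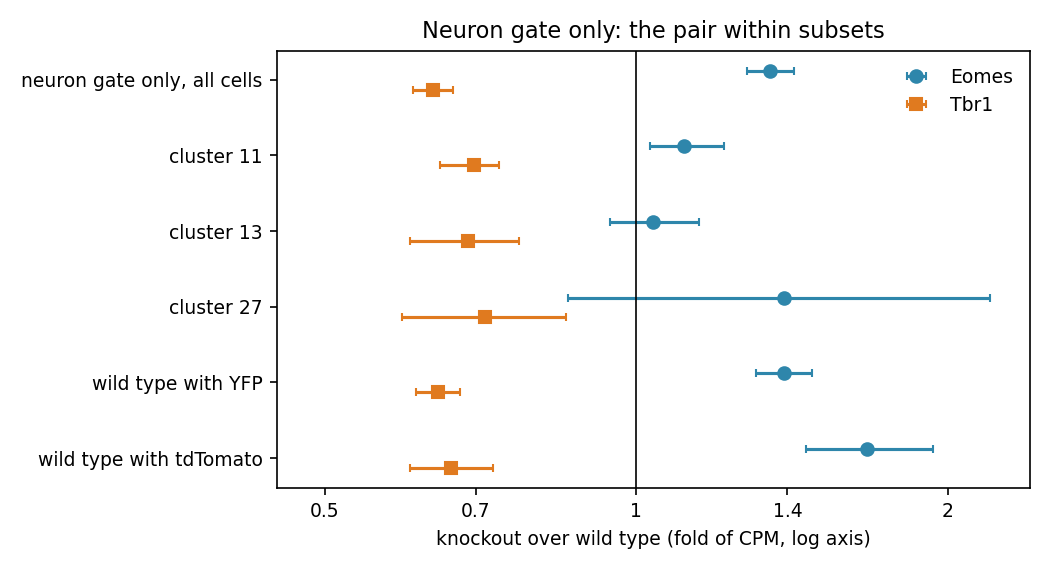
Knockout over wild-type fold of Eomes and Tbr1 in the neuron gate only (log axis) for all cells, for clusters 11, 13 and 27, and against wild-type cells with YFP or tdTomato only, with 95% counting intervals. Tbr1 lies left of 1 in every subset shown, at 0.688 to 0.714 in the clusters, while Eomes is close to 1 in clusters 11 and 13.

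Eomes was also read in the knockout where wild type had almost none. In the hem progenitor-like clusters 1 and 3 (1629, 1446 and 1858 cells), Eomes was at 4.94 [4.04 to 5.98], 5.58 [4.63 to 6.67] and 28.4 [26.4 to 30.5] CPM, 5.39-fold higher [4.64 to 6.28]. It passed the 2-fold criterion there, as did 4.07% of 6825 genes upward and 1.03% downward. Tbr1 was at 1.74, 1.75 and 4.21 CPM, too low for the criterion. In the cells of these clusters outside both gates the difference was present too: in cluster 3 Eomes was at 1.97, 2.86 and 22.9 CPM and in cluster 1 at 2.63, 3.37 and 14.3. Gadd45g was also higher there, at 29.2, 25.5 and 136 CPM in those cluster 3 cells, while Neurog2 was at 90.8, 101 and 106. Cell types that should lack Eomes also had more of it in the knockout. Choroid plexus-like cells had 1.79, 1.02 and 4.19 CPM, mesenchyme-like cells 3.12, 1.81 and 14.7, and erythroid-like cells 0.636, 0.313 and 34.7 [28.9 to 41.4]. Of the 124 Eomes UMIs of knockout erythroid-like cells, 111 came from cluster 33, 25 cells of which 48% passed the neuron gate only. In the erythroid-like clusters 23 and 28 the knockout was at 0.734 and 7.13 CPM. The rise was not limited to hem progenitor-like clusters. In septal and commissural plate-like cluster 12 (414, 340 and 166 cells) Eomes was at 3.96, 2.61 and 42.7 CPM. The rise was also not seen in every cluster with little Eomes in wild type. Cells of the unnamed cluster 0 outside both gates were at 3.01, 2.39 and 2.57 CPM. Over all cells, unnamed cluster 2 was at 3.37, 3.91 and 0.43 CPM and unnamed cluster 8 at 1.99, 2.32 and 2.63. The part of free RNA in the hem progenitor-like level was not tested.

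Cells of the progenitor gate with Eomes detected (445, 376 and 607) differed from the others (704, 644 and 1028) in 211 genes, by at least 2-fold in the same direction in all 3 libraries. Of 5767 genes deep enough, 2.76% were higher and 0.902% lower. Scrt2, a neuronal Snail-family repressor, was at 101, 103 and 109 CPM against 14.1, 14.1 and 13.3. Cnr1, the cannabinoid receptor, was at 125, 109 and 206 CPM against 20.01, 14.5 and 26.0. The zinc finger gene Myt1 was at 60.0, 61.5 and 67.1 CPM against 8.54, 9.42 and 8.65, and the Notch ligand Dll3 at 152, 181 and 66.8 against 24.0, 30.6 and 11.4. Prdm8, Sstr2, Nhlh1 and Nhlh2 completed the 8 highest.

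Fewer genes were lower in Eomes-detected cells. Hmga2, a chromatin protein of stem cells, was at 65.7, 43.2 and 41.2 CPM against 235, 253 and 152, and the Notch effector Hes1 at 12.0, 12.8 and 82.7 against 71.3, 78.5 and 219. Lix1, Mt1, Tgfb2, Creb5, Sfrp1 and Erf were the other 6. Of the lists, 9 of 10 measured newborn neuron genes were higher, 4 of 12 proneural genes were higher, 2 of 9 apical progenitor genes and 1 of 9 S phase genes were lower, and 0 of 10 G2 and M phase genes passed. The newborn neuron list includes the gate genes Tubb3 and Stmn2, and the proneural list Neurog2 and Gadd45g. Cells that also passed the neuron gate were among those compared, 85, 59 and 174 with Eomes and 40, 38 and 54 without. Their part in the list counts was not tested. Of 6 measured Cajal-Retzius markers 5 were higher, among them Ebf2 at 330, 342 and 231 CPM against 76.0, 79.0 and 51.3. Gmnc was also higher, at 193, 164 and 207 CPM against 70.6, 79.8 and 47.1. Median depth was lower in Eomes-detected cells, at 9416, 10477 and 7032 UMIs against 10488, 11896 and 8471.

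The number of genes apart by Tbr1 in neurons depended on the processing. Among 3453 genes, 0 were higher and 0.116% lower, 4 genes, in Tbr1-detected neurons (428, 386 and 641 cells) against the others (63, 56 and 215). All 4 belong to dividing cells: the topoisomerase Top2a at 24.8, 21.5 and 37.1 CPM against 93.1, 121 and 86.0, the mitotic ubiquitin enzyme Ube2c, the mitotic activator Cdc20 and the replication factor Pclaf. The count was 10 without wild-type library 2, 308 without thinning, 370 with a neuron gate of 1 UMI, 395 without the filter on low counts and 0 with a neuron gate of 4 UMIs. Markers of other cells also differed: Hbb-y was at 237, 193 and 4126 CPM in Tbr1-detected neurons and at 209, 194 and 18166 in the others.

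None of the 8 genes linked to Tbr1 in the cortex passed the criterion between genotypes. They comprise Reln, Auts2, Sox5, Fezf2, Bcl11b, Bcl11a, Grin2b and Ntng1, of which 5 were deep enough in progenitors and 6 at the other steps. Between 1.57% and 3.7% of all genes passed in each direction at these steps, so a count of 0 is near the share over all genes. In neurons Reln, the Cajal-Retzius glycoprotein, was at 146, 125 and 124 CPM, Auts2 at 436, 440 and 485, and Bcl11b at 363, 337 and 475. The median log2 ratio of the list was 0.16 in neurons, beside -0.13 over all genes. These are levels over all neurons, whose cluster makeup differed as above.

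Other genes of the neuronal path also differed between the genotypes. In progenitors 5 of 12 measured proneural genes were lower in the knockout and 0 higher, with a median log2 ratio of -0.94 beside -0.06 over all genes, of which 1.57% were lower and 3.45% higher. Neurog1, a close relative of Neurog2, fell from 75.6 to 14.5 CPM, Insm1, a zinc finger factor of intermediate progenitors, from 77.6 to 25.0, and the Notch ligand Dll1 from 321 to 145. Of the apical genes 2 of 10 were higher, Hes1 from 58.6 to 198 CPM and the glutamate transporter gene Slc1a3 from 14.8 to 32.7. Of 10 newborn neuron genes 2 were lower, Tubb3, itself a gate gene, and the RNA-binding gene Elavl3, which went from 236 to 108 CPM. Cells with enough Tubb3 and Stmn2 for the neuron gate were left out of these progenitors by rule. The proneural list likewise includes the gate genes Neurog2 and Gadd45g, which each of these progenitors had to hold. In neurons Insm1 was again lower, from 188 to 60.4 CPM, and Dll3 from 185 to 83.2. The replication clamp gene Pcna was higher at all 3 steps, and in progenitors it went from 43.2 to 146 CPM, while of the G2 and M phase genes none passed among the 10, 8 and 6 deep enough in progenitors, both gates and neurons.

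The rest of the T-box family was nearly silent. All 17 family genes were in the files, and besides Eomes and Tbr1 only Mga, a MAX-binding member expressed in most cells, was deep enough, at 50.2, 52.5 and 61.2 CPM over all cells used. Tbx18 was next, at 1.67, 1.81 and 1.05 CPM, and Tbx10 had no UMI. Tbx21 was at 0.432, 0.429 and 0.126 CPM. Tbx1 was at 3.12 and 3.30 CPM in wild-type neurons and had no UMI in those of the knockout.

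Likeness was measured by Pearson's r of log2(CPM + 1) over the 25 wild-type clusters, among 9056 genes, as a description since the clusters share libraries. The genes most like Eomes were St18 (0.980), Ebf2 (0.976), Lzts1 (0.976), Neurod1 (0.9752) and Nhlh2 (0.969). Those most like Tbr1 were Scrt1 (0.983), Bhlhe22 (0.972), Stmn2 (0.970), Celsr3 (0.969) and Mir124a-1hg (0.968). The r between Eomes and Tbr1 was 0.878, which placed Tbr1 at rank 69 for Eomes and Eomes at rank 88 for Tbr1. Over 31 knockout clusters it was 0.849.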

How the data were processed

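The authors deposited gene-by-cell UMI counts (not normalized, at least 500 UMIs per barcode) for 3 droplet libraries, made with Cell Ranger on mm10. The submitters' processing notes give version 3.1.0, while the headers of the deposited files name 3.1.0 for wild type and 6.0.0 for the knockout, with 28001 and 32285 features. Only the 27040 shared Ensembl identifiers were used. Cells needed at least 1000 genes and 2000 UMIs and at most 10% mitochondrial UMIs. Simulated-doublet scoring removed 941, 679 and 2491 cells. Gates used counts thinned to 4000 UMIs, which left out 175, 213 and 1226 shallower cells (2.05%, 2.85% and 9.52%). Levels are CPM from all UMIs of the gated cells, with exact Poisson intervals. Shares have exact Clopper-Pearson intervals, and folds have intervals conditional on the summed counts. Intervals cover counting error only. Log2 ratios use a pseudocount of 1 CPM.

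A gene was called between genotypes when it differed at least 2-fold from each wild-type library with separate intervals, the higher group having 50 UMIs and 20 CPM or more. The calling was tested on Poisson counts simulated from the wild-type profile of each gate, with known changes put in. Such counts hold no difference between pools or in cell makeup, so this check covers counting error only. Clusters came from 2000 variable genes scaled within genotype, 40 principal components and Leiden at resolution 1. Named genes followed fixed rules: the pair and gate genes always, the 5 most alike over clusters, the 8 highest and 8 lowest by smallest fold over libraries, and up to 4 called members of each list. Reln, Auts2, Bcl11b, Trp73, Hbb-y, Ebf2, Gmnc and the T-box genes beyond the pair were named after their values were seen. Members and lists were chosen with earlier results of these data known. Analyses used Python 3.11.15, scipy 1.17.1, leidenalg 0.10.2, edgeR 4.0.16 and DESeq2 1.42.0 (scaling factors only), and sequences from RefSeq (GRCm38.p6). A split of neurons by another gene is not reported here.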

Additional observations from a re-analysis of the deposited data

Results flagged for a closer look

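The genotype difference in Eomes had opposite signs along the path: the log2 ratio of knockout over wild type was -0.31 in the progenitor gate only, 0.26 in cells of both gates and 0.43 in the neuron gate only. The difference between these steps was not tested, and the negative value turned positive inside shared clusters. Reads of the Cre transgene sequence, which no comparison uses, gave 14 and 19 UMIs in the used cells of wild-type libraries 1 and 2, and the knockout feature set does not list that sequence.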

How the results depend on the processing

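No paired analysis was possible because the knockout has 1 library. In the order Eomes in progenitors, both gates and neurons, then Tbr1 in the same, the log2 ratios were -0.31, 0.26, 0.43, -1.21, -0.43 and -0.65. Their signs held under every setting run for Eomes in neurons (0.084 to 0.74), Tbr1 in progenitors (-1.48 to -0.083) and Tbr1 in neurons (-1.17 to -0.41). The cause of each change below was not tested. With gates on all UMIs, without thinning, the values became -0.47, -0.60, 0.27, -1.48, -1.35 and -0.76. With doublets kept they were -0.22, 0.035, 0.24, -0.93, -0.76 and -0.94. In shared clusters they were 0.38, 0.045, 0.084, -0.083, -0.11 and -0.46. With the neuron gate on Tubb3 alone, Eomes was 0.58 in progenitors and 0.32 in neurons, and Tbr1 -0.13, 0.35 and -0.41. With Dcx and Mapt, Eomes was -0.14, 0.79 and 0.27, and Tbr1 -0.66 in progenitors and -0.59 in neurons. A gate of 2 UMIs of both progenitor genes gave Eomes -0.018 in progenitors and 0.12 in both gates and Tbr1 -0.84 in progenitors, and 1 UMI of either gave Tbr1 -0.86 in neurons. A neuron gate of 1 UMI gave Eomes 0.076 and 0.28 and Tbr1 -0.61 and -0.73 in both gates and neurons. Thinning to 2500 UMIs gave Tbr1 -0.92 in progenitors and -0.27 in both gates. Cells rich in Cajal-Retzius genes gave Eomes 0.21 and Tbr1 -0.66 in progenitors and Tbr1 -0.58 in neurons. Cells poor in them gave Eomes 0.034 in progenitors and Tbr1 -0.61, -1.21 and -1.17. Against tdTomato-only wild-type cells, Eomes was 0.45 in both gates and 0.74 in neurons, and Tbr1 -0.98 in progenitors. TMM scaling (trimmed mean of M-values) and median-ratio scaling both gave Eomes 0.54 and Tbr1 -0.54 in neurons, a shift of 0.11 for every gene.

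The Tbr1 share of pair UMIs in cells of both gates, knockout minus wild type, became 1.72 percentage points with Tubb3 alone, -2.59 in shared clusters, -8.52 and -16.0 with the stricter and looser progenitor gates, -17.3 against tdTomato cells, -16.7 with Dcx and Mapt, and -24.9 in cells poor in Cajal-Retzius genes. The co-detected share there became -2.27 points at 2500 UMIs, -5.48 without thinning, -6.92 with the stricter gate, -7.85 against tdTomato cells, -12.5 with Dcx and Mapt, and -9.02 in cells poor in Cajal-Retzius genes, and it kept the sign of the reported value in 12 of 18 settings. The 211 genes apart by Eomes became 140 at 2500 UMIs, 91 and 483 with the stricter and looser progenitor gates, 131 with doublets and 826 without the filter on low counts. The 4 genes apart by Tbr1 became 1 at 2500 UMIs, 308 without thinning, 2 with another seed, 7 with the stricter progenitor gate, 370 and 0 with neuron gates of 1 and 4 UMIs, 11 with doublets, 395 without the filter and 10 without wild-type library 2. The settings by Tubb3, Stmn2, Dcx and Mapt, Cajal-Retzius genes, shared clusters and shared barcodes were chosen after seeing the data. Depth limits cells of both gates, of which each library held 97 to 228.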
